A study of Mus musculus with 14 samples.

Results

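Canonical Wnt response genes are transcribed when Wnt ligands stabilise beta-catenin, which then joins TCF/LEF factors on DNA. Many of their products act back on the pathway, as feedback inhibitors or as receptors that tune it, so their transcripts are widely read as a measure of pathway activity. In the limb bud, Wnt signals from the ectoderm are known to act on the ectoderm itself, where they help to form the apical ridge, and on the underlying mesenchyme, which they keep proliferating and undifferentiated. The genes followed here were 10 in number, a list of names with no threshold on values, drawn up with earlier results of these data known: Axin2, Lef1, Tcf7, Nkd1, Nkd2, Notum, Lgr5, Znrf3, Rnf43 and Sp5. All 10 were listed among the 23284 gene symbols of the count data, and all 10 passed the filter on low counts (CPM, counts scaled to library size, of at least 1 in at least 3 of the 14 samples), as did 12393 autosomal genes in all.

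RNA-seq was done on mouse embryos of 30 somites (E10.0) and of 35 somites (E10.5), each replicate being the 2 forelimb buds of 1 embryo. Wild-type embryos (n=3 per stage) were labelled Smad4+/+ PrxCreT/+, and mutants (n=4 per stage) were labelled Smad4 delta/delta-c PrxCreT/+, that is 1 null and 1 conditional allele, and are called Smad4Δ/Δc below. Every embryo, wild type included, thus carried the Prx-Cre transgene, and the labelled strain was NMRI. Cre is driven by Prrx1 sequences in limb bud mesenchyme, so that the ectoderm of the mutants keeps 1 working Smad4 allele, the other being null. The controls were littermates of the mutants, from Smad4 flox/+ females by the methods of the study, while the labels give flox/flox females, which cannot bear Smad4+/+ embryos. Libraries held between 34066930 and 61691258 reads on genes. Smad4, the shared partner of the receptor-activated SMADs in BMP and TGFbeta signalling, was at 152 to 169 CPM in the wild-type libraries and at 32.9 to 46.0 CPM in the mutant libraries, lower in every mutant. Replicates 4 and 5 of the mutants, 4 libraries in all, stood apart in the share of reads on Rn45s, the ribosomal RNA precursor, with 1.72% to 8.05% against 0.151% to 0.478% in the other 10 libraries. All 4 were mutants, so each genotype result is also given without them where that changed the call. Limb bud mesenchyme markers (Prrx1, Prrx2, Tbx5, Lhx2, Lhx9 and Twist1) summed to at least 1067 CPM in every library.

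A gene was called a differentially expressed gene (DEG) when the exact test of edgeR gave a Benjamini-Hochberg adjusted p of at most 0.1 over all 12393 genes and the fold change was at least 1.2. Expression is given as TMM-normalized CPM, which compares one gene between samples. To compare different genes, CPM was divided by the summed length of the gene's exons.

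Per kb of exon, Tcf7 had the highest level of the 10 genes in the wild type at E10.0, with 37.3 CPM per kb, and Lgr5 the lowest, with 0.205. Axin2 was second (17.0 CPM per kb). Nkd1 (10.3), Nkd2 (9.33) and Lef1 (9.24) followed, and their ranges over samples overlapped from one to the next. Below them lay Notum (5.53), Znrf3 (3.70), Sp5 (0.968) and Rnf43 (0.490 CPM per kb), each with a range apart from its neighbours. At E10.5 in the wild type, Tcf7 remained first (23.4 CPM per kb) and Lgr5 last (0.375), with Nkd2 at 12.7 CPM per kb now in the third place. In the mutants at E10.5, Nkd2 (15.0) and Axin2 (14.9 CPM per kb) had overlapping ranges after Tcf7. Within genes, the biological coefficient of variation between replicates was lowest for Nkd2 (7.35%) and highest for Rnf43 (17.8%), with Sp5 at 15.9%, Lef1 at 14.8% and Notum at 14.7%, beside a median of 10.2% over all genes tested. Sp5, the gene with the lowest mean CPM, rested on 33 to 116 reads per library.

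**Figure D1:**
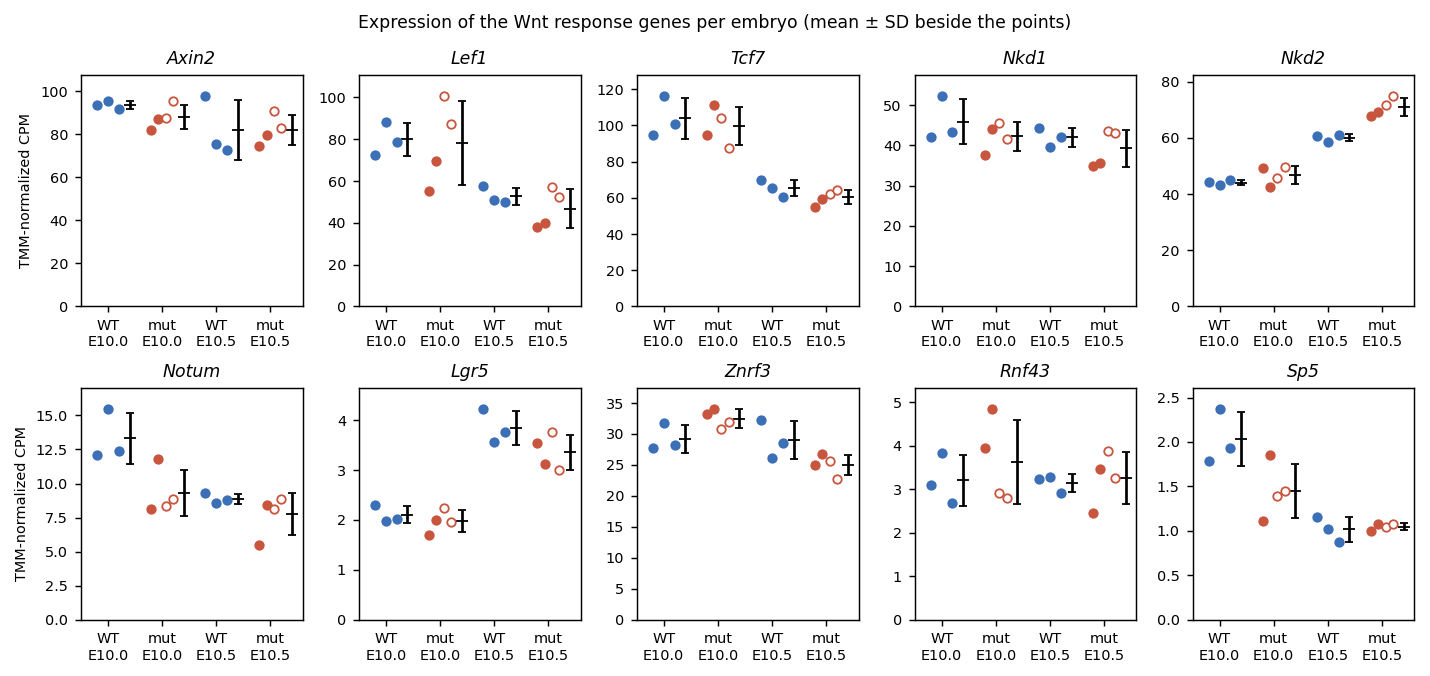
TMM-normalized CPM (y axis, from 0) of the 10 genes in each embryo, by genotype and stage (x axis), with the mean ± SD of each group in black beside the points; open circles are mutant replicates 4 and 5. Tcf7, Lef1, Notum and Sp5 were lower and Nkd2 and Lgr5 higher at E10.5 than at E10.0 in the wild type, while most mutant and wild-type points of the same stage overlap.

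The 10 genes are spread over 6 chromosomes of the mm9 genome build, with 5 of the 10 on chromosome 11, which holds 8.53% of the genes tested. These are Axin2 (chr11:108781663-108812097, plus strand), Tcf7 (chr11:52065873-52096681, minus), Notum (chr11:120515102-120522489, minus), Znrf3 (chr11:5176327-5344850, minus) and Rnf43 (chr11:87476224-87549041, plus). The others are Sp5 (chr2:70312980-70315786, plus), Lef1 (chr3:130813389-130927274, plus), Nkd1 (chr8:91045243-91118786, plus), Lgr5 (chr10:114887367-115024836, minus) and Nkd2 (chr13:73955982-73985079, minus). Gene models on the opposite strand overlap Axin2 (Gm11670) and Notum (4732444A12Rik and Gm11768). None of these was counted as a gene in the data and the libraries were unstranded, so reads from them cannot be told apart from reads of Axin2 and Notum.

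TCF/LEF factors bind a short core, searched for here as CTTTGNN on either strand, where each N was A or T, in the 250 bases before each RefSeq transcription start (build GRCm38.p6, not the build of the counts). Of the members, 7 had such a window, and Notum, Lgr5 and Znrf3 had none. A match was found for 2 of the 7, Sp5 and Lef1. Over all RefSeq windows of this length, 14.8% held a match, and 2 of the members' 12 windows (16.7%) did. By gene, 28.6% of the members with a window and 16.8% of all genes held a match. The share of windows was thus near the background and the share by gene above it, the latter resting on 2 of 7 genes. A gene counted when any of its windows held a match. The 7 members had 12 windows, and all 27025 genes had 32851. Members thus had more windows per gene, and the shares by gene are not like for like. Sp5 had 2 matches, CTTTGTT on the minus strand at 222 and CTTTGAT on the plus strand at 104 bases before the start. Lef1 had 1, CTTTGTA on the minus strand at 147 bases before the last of its 4 starts, which lies 45997 bases downstream of the first. The windows of these genes and that of Axin2, the most commonly used of the response genes, which had no match, are shown 5′ to 3′ along the gene's strand, with the matches in capitals.
Sp5 (chr2:70474673-70474922, plus strand): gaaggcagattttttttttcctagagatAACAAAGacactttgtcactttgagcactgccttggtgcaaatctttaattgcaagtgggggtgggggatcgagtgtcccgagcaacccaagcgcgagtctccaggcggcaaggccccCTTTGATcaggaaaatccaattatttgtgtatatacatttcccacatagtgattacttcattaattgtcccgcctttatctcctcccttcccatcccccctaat
Lef1, last start (chr3:131156044-131156293, plus strand): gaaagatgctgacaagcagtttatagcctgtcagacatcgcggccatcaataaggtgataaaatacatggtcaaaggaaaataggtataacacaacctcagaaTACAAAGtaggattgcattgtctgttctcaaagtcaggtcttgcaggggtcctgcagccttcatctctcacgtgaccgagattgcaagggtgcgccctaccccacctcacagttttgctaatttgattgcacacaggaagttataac
Axin2 (chr11:108920099-108920348, plus strand): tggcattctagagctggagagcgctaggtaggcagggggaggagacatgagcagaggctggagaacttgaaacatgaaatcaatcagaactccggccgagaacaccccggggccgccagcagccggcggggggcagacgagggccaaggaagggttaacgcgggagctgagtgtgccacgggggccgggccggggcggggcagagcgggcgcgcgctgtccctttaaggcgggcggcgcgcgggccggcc

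The first comparison asked whether loss of Smad4 altered the response genes at E10.0. Of the 10 genes, 1 was a DEG, Notum, which was lower in the mutants, beside 6.61% of all genes tested that were DEGs (3.33% higher and 3.28% lower). The median log2 fold change over the 10 genes was -0.08, and it was -0.02 over all genes tested. Notum encodes a secreted enzyme that removes the lipid from Wnt ligands and so inactivates them. Its expression was 12.1, 15.5 and 12.4 CPM in the wild type and 8.16, 11.8, 8.36 and 8.83 CPM in the Smad4Δ/Δc embryos. All 4 mutants thus lay below all 3 wild types, with mutant replicate 3 close to the lowest of them. Samples of the groups did not overlap for 1 of the 10 genes, and for 17.8% of all genes. The means were 13.3 ± 1.87 CPM (SD, n=3) and 9.28 ± 1.69 CPM (SD, n=4), a log2 fold change of -0.52 (SE 0.17, edgeR adjusted p = 0.0475). The call was lost when mutant replicate 1 (adjusted p = 0.148), mutant replicate 5 (0.135), wild-type replicate 2 (0.271) or wild-type replicate 3 (0.149) was left out, and without mutant replicates 4 and 5 (log2 fold change -0.40, adjusted p = 0.156). The summed level of 9 ectoderm and apical ridge markers ranged from 215 to 328 CPM in the mutants and from 263 to 336 CPM in the wild types at this stage, and 0 of the 9 were DEGs by the exact test, with 0 at an unadjusted p under 0.05. Of these 9 markers, 7 had a negative log2 fold change, and the median over the 9 was -0.15. The highest sum of each genotype, 336 CPM in wild-type replicate 2 and 328 CPM in mutant replicate 3, was in the embryo with the most Notum. The lowest sums, 263 CPM in wild-type replicate 3 and 215 CPM in mutant replicate 5, were not in the embryos with the least Notum. The part of the ectoderm in the level of Notum was not tested.

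Among the nuclear factors, Sp5, a zinc finger repressor, was measured at 1.79, 2.37 and 1.94 CPM in the wild type and at 1.11, 1.85, 1.39 and 1.45 CPM in the mutants at E10.0. Only mutant replicate 3 reached into the wild-type range. The log2 fold change of -0.48 (SE 0.21) did not pass the test (edgeR adjusted p = 0.191), but it did without mutant replicate 3 (-0.64, adjusted p = 0.0835). Lef1, a TCF/LEF factor itself, showed the widest spread among mutants of the 3 nuclear factors, with a coefficient of variation of 25.5%. It was at 72.7, 88.3 and 78.8 CPM in the wild type and at 55.1, 69.8, 101 and 87.2 CPM in mutant replicates 1, 3, 4 and 5. Mutant replicates 1 and 3 were below all wild types, whereas replicate 4 was above all of them, and the log2 fold change was -0.03 (SE 0.16, adjusted p = 0.953). Without mutant replicates 4 and 5, which left mutant replicates 1 and 3, Lef1 was a DEG, with a log2 fold change of -0.34 (edgeR adjusted p = 0.0300). That fit called more DEGs over all genes than the fit with all mutants. Tcf7, the other TCF/LEF factor of the set, was at 94.6 to 116 CPM in the wild type and 87.4 to 111 CPM in the mutants, a log2 fold change of -0.06 (95% interval -0.26 to 0.13).

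No intracellular feedback inhibitor passed the test between genotypes at E10.0. Axin2, a scaffold of the complex that degrades beta-catenin, had a mean of 93.7 ± 1.80 CPM (SD, n=3) in the wild type and 88.0 ± 5.59 CPM (SD, n=4) in the mutants. Its log2 fold change was -0.09 (95% interval -0.29 to 0.11). Nkd1 and Nkd2, which bind Dishevelled and restrain it, had log2 fold changes of -0.12 (95% interval -0.34 to 0.09) and 0.08 (-0.08 to 0.25). Of the membrane proteins, Znrf3 and Rnf43 are ubiquitin ligases that remove Frizzled receptors from the cell surface, and Lgr5 is the R-spondin receptor that holds them back. Their log2 fold changes were 0.15 (95% interval -0.04 to 0.35) for Znrf3, 0.19 (-0.23 to 0.60) for Rnf43 and -0.10 (-0.45 to 0.25) for Lgr5.

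At E10.5 the same comparison gave no DEG among the 10 genes by the exact test, beside 3.73% of all genes tested (2.19% higher and 1.54% lower). The quasi-likelihood test and DESeq2 also called 0, and 2 of the 10 had an unadjusted p under 0.05. The median log2 fold change over the 10 genes was -0.11, and it was -0.01 over all genes tested. Nkd2 was at 60.7, 58.7 and 61.0 CPM in the wild type and at 67.9, 69.1, 71.8 and 75.1 CPM in the mutants. Every mutant was above every wild type, which held for 1 of the 10 genes in either direction and for 13.0% of all genes. The means of 60.1 ± 1.25 CPM (SD, n=3) and 71.0 ± 3.20 CPM (SD, n=4) differed by 0.24 on the log2 scale (SE 0.08), a 1.18-fold difference below the fold threshold, with an edgeR adjusted p of 0.113. Over the alternative fits the adjusted p of Nkd2 ranged from 0.00933 (DESeq2) to 0.454 (without wild-type replicate 2), and it was a DEG only without mutant replicate 1 (log2 fold change 0.27, adjusted p = 0.0803). Znrf3 was at 32.2, 26.2 and 28.6 CPM in the wild type and 25.0, 26.7, 25.6 and 22.8 CPM in the mutants, with overlap at the lower end of the wild type. Its log2 fold change of -0.21 (SE 0.10, unadjusted p = 0.0386) had an adjusted p of 0.439.

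Lef1 again varied among mutants at E10.5. It was at 57.4, 50.9 and 50.0 CPM in the wild type and at 38.2, 39.7, 56.9 and 52.4 CPM in mutant replicates 1, 2, 4 and 5. Mutant replicates 1 and 2 lay below all wild types and replicates 4 and 5 within the wild-type range, as the plot against the Rn45s share shows. The log2 fold change was -0.17 (SE 0.16, edgeR adjusted p = 0.872) with all mutants. Without replicates 4 and 5, which left mutant replicates 1 and 2 at this stage, it was -0.43 (adjusted p = 0.0103), and Lef1 was a DEG. Whether the RNA of replicates 4 and 5 plays a part in the level of Lef1 was not tested. Axin2 had equal means, with 82.0 ± 13.9 CPM (SD, n=3) in the wild type and 82.0 ± 6.88 CPM (SD, n=4) in the mutants, and an interval for the log2 fold change of -0.20 to 0.20. Notum, the DEG of the earlier stage, was at 9.30, 8.58 and 8.78 CPM in the wild type and 5.51, 8.45, 8.15 and 8.89 CPM in the mutants, with a log2 fold change of -0.20 (SE 0.17, adjusted p = 0.840). Its lowest value belonged to mutant replicate 1, whose summed ectoderm marker level of 178 CPM was also the lowest of the 14 libraries, beside 243 to 252 CPM in the other mutants and 249 to 256 CPM in the wild types at this stage. The part of the ectoderm in that value was not tested. The other genes overlapped between genotypes, with log2 fold changes of -0.12 for Tcf7, -0.10 for Nkd1, -0.19 for Lgr5, 0.05 for Rnf43 and 0.04 for Sp5.

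**Figure D2:**
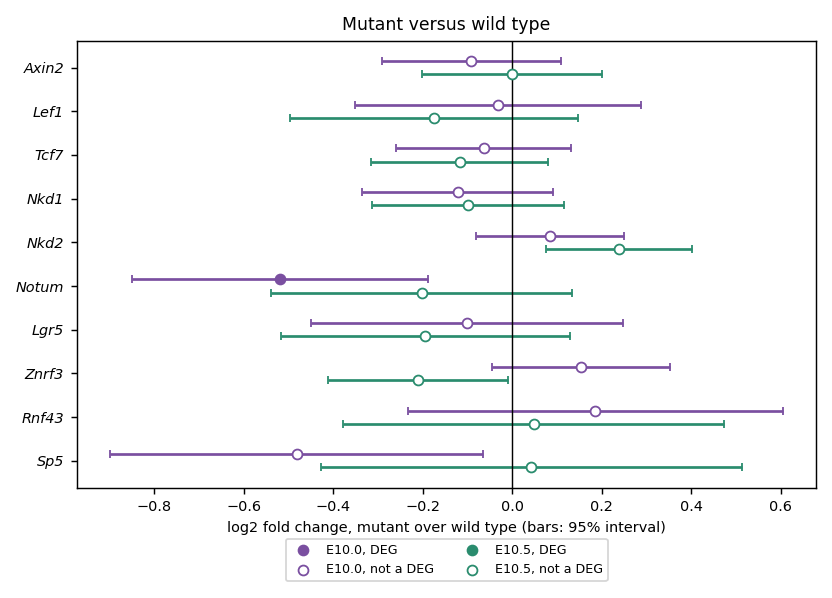
Log2 fold change of Smad4Δ/Δc over wild type (x axis) of each gene (y axis) at E10.0 and at E10.5, with 95% intervals; filled circles are DEGs. Notum at E10.0 (-0.52) is the only filled circle, and the intervals of Notum and Sp5 at E10.0 and of Nkd2 and Znrf3 at E10.5 are the only ones that leave out 0.

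**Figure D3:**
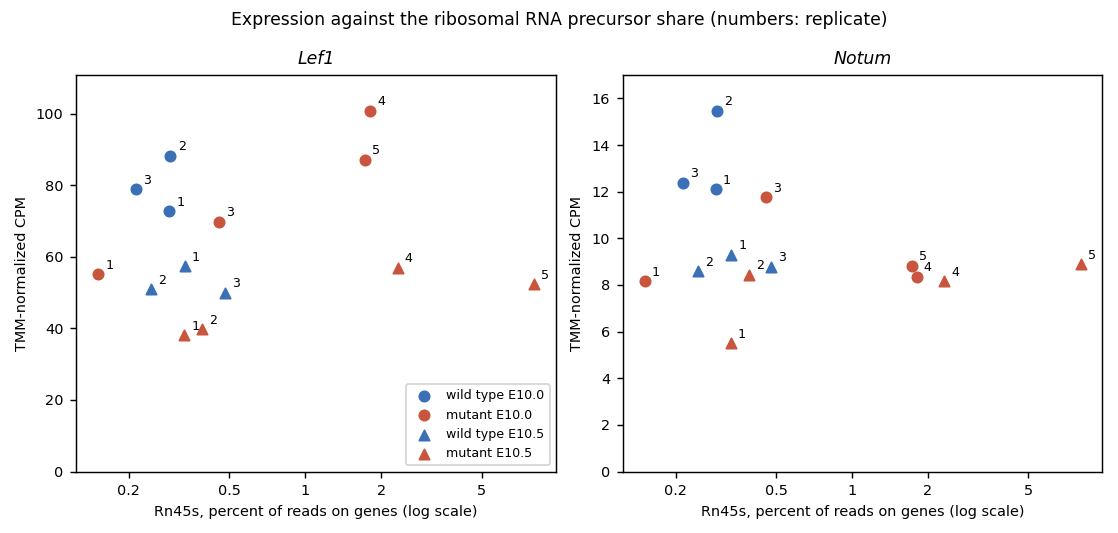
TMM-normalized CPM (y axis, from 0) of Lef1 and Notum in the 14 libraries against the share of reads on Rn45s (x axis, log scale), with replicate numbers beside the points. The mutant libraries on the right, replicates 4 and 5, have more Lef1 than the other mutants of their stage; no such split is seen for Notum, in which mutant replicate 3 at E10.0 and replicate 1 at E10.5 lie apart from the other mutants.

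Markers of several cell types moved with genotype in these bulk samples, where fewer cells of a type and less RNA per cell cannot be told apart. At E10.0, 5 of 6 limb bud mesenchyme markers were lower DEGs in the mutants, and their summed level was 1067 to 1271 CPM in the mutants against 1334 to 1541 CPM in the wild types. At E10.5, 4 of 6 were lower DEGs, with sums of 1191 to 1276 CPM against 1489 to 1546 CPM. Among these markers, the study reported Lhx2 and Prrx2 as SMAD4 target genes with reduced expression by in situ hybridization in mutant forelimb buds. It also stated, citing earlier work, that mesenchymal apoptosis is not seen at these stages. Both mesothelium markers tested, Wt1 and Upk3b, were higher DEGs in the mutants at E10.0 and lower DEGs at E10.5, and both were called in the interaction. Together with Msln, which was not tested, they summed to 7.94 to 18.3 CPM in the mutants and 1.08 to 2.64 CPM in the wild types at E10.0, and to 0.586 to 2.38 CPM against 2.91 to 5.49 CPM at E10.5. Of the 3 macrophage markers tested, Ptprc and Cx3cr1 were higher DEGs in the mutants at E10.0, with sums over 4 markers of 5.03 to 6.59 CPM in the mutants and 1.86 to 4.11 CPM in the wild types. The part of these markers in the levels of the response genes was not tested.

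The second question was how the response genes changed as the limb bud grew from E10.0 to E10.5. In the wild type, 6 of the 10 genes were DEGs (2 higher and 4 lower at E10.5), beside 10.1% of all genes tested (5.39% higher and 4.74% lower). These were Lef1, Tcf7, Sp5 and Notum, which fell, and Nkd2 and Lgr5, which rose. The samples of the stages did not overlap for these 6 genes, nor for 37.0% of all genes. The median log2 fold change over the 10 genes was -0.16 against -0.01 over all genes tested. Left-out replicates gave between 4 and 7 DEGs, and Tcf7, Sp5, Nkd2 and Lgr5 were DEGs in all 6 of those fits.

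All 3 nuclear factors fell in the wild type. Tcf7 went from 94.6, 116 and 101 CPM at E10.0 to 70.0, 65.5 and 60.7 CPM at E10.5. Its log2 fold change was -0.67 (SE 0.11, edgeR adjusted p = 1.06e-07). Sp5 was lower by the largest factor, from 2.03 ± 0.302 to 1.02 ± 0.139 CPM (SD, n=3 each), a log2 fold change of -1.0 (SE 0.24, adjusted p = 0.00134). Lef1 went from 79.9 ± 7.85 to 52.8 ± 4.04 CPM (SD, n=3 each), with a log2 fold change of -0.60 (SE 0.18, adjusted p = 0.0151). The call on Lef1 was lost without wild-type replicate 2 of E10.0 (-0.52, adjusted p = 0.155) or replicate 3 of E10.5 (-0.56, adjusted p = 0.136).

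Of the feedback inhibitors, Nkd2 rose while its paralogue Nkd1 did not change past the threshold. Nkd2 went from 44.2, 43.2 and 44.9 CPM to 60.7, 58.7 and 61.0 CPM, with a log2 fold change of 0.45 (SE 0.09, edgeR adjusted p = 5.31e-05). Nkd1 had 45.9 ± 5.61 CPM at E10.0 and 42.0 ± 2.33 CPM at E10.5 (SD, n=3 each), a log2 fold change of -0.13 (95% interval -0.36 to 0.10). These intervals of the paralogues do not overlap, though the difference between them was not tested. Notum fell from 13.3 to 8.89 CPM (log2 fold change -0.58, SE 0.18, edgeR adjusted p = 0.0241). That call was lost without wild-type replicate 2 of E10.0 (adjusted p = 0.261), replicate 2 of E10.5 (0.120) or replicate 3 of E10.5 (0.145). Axin2 was at 93.7, 95.5 and 91.9 CPM at E10.0 and 98.0, 75.6 and 72.5 CPM at E10.5, where replicate 1 stood above the other two. Its log2 fold change was -0.19 (SE 0.11, adjusted p = 0.302), and it was a DEG without that replicate (-0.33, adjusted p = 0.0313).

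Lgr5 rose from 2.30, 1.98 and 2.03 CPM to 4.23, 3.55 and 3.76 CPM, the largest increase of the set (log2 fold change 0.87, SE 0.18, edgeR adjusted p = 0.000121). Its level per kb stayed the lowest of the 10 genes at both stages. Znrf3 (log2 fold change -0.01, 95% interval -0.22 to 0.20) and Rnf43 (-0.03, -0.48 to 0.42) did not pass the test, and the wide interval of Rnf43 allows changes that Znrf3's does not.

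In the Smad4Δ/Δc embryos, 5 of the 10 genes were DEGs between the stages (2 higher and 3 lower at E10.5), beside 19.2% of all genes tested (10.8% higher and 8.40% lower). Samples of the stages did not overlap for 5 of the 10 genes, beside 20.0% of all genes. Nkd2 and Lgr5 rose, and Tcf7, Lef1 and Znrf3 fell. Nkd2 went from 49.2, 42.6, 45.6 and 49.6 CPM to 67.9, 69.1, 71.8 and 75.1 CPM (log2 fold change 0.60, SE 0.08, edgeR adjusted p = 1.66e-12), so the lowest E10.5 embryo was well above the highest at E10.0. Lgr5 went from 1.98 ± 0.224 to 3.36 ± 0.358 CPM (SD, n=4 each), a log2 fold change of 0.77 (SE 0.16, adjusted p = 4.96e-05). Tcf7 went from 99.5 ± 10.5 to 60.4 ± 3.98 CPM (SD, n=4 each), with a log2 fold change of -0.72 (SE 0.09, adjusted p = 1.78e-12). Lef1 fell by 0.74 on the log2 scale (SE 0.15, adjusted p = 3.16e-05), though its groups overlapped, since mutant replicate 1 of E10.0 (55.1 CPM) was below replicate 4 of E10.5 (56.9 CPM). These 5 calls also held in all 8 fits with 1 mutant left out, where 5 or 6 of the 10 genes were DEGs.

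Znrf3 was a DEG between stages in the mutants and not in the wild type. It was at 33.3, 34.1, 30.7 and 31.9 CPM in the mutants at E10.0 and 25.0, 26.7, 25.6 and 22.8 CPM at E10.5, with no overlap. Its log2 fold change was -0.38 (SE 0.09, edgeR adjusted p = 0.00102). The reverse held for Notum and Sp5. Notum had a log2 fold change of -0.27 (SE 0.16, adjusted p = 0.268) in the mutants, in which 3 of the 4 values at E10.0 lay within the range at E10.5. Sp5 was at 1.11, 1.85, 1.39 and 1.45 CPM at E10.0 and 0.996, 1.07, 1.05 and 1.07 CPM at E10.5. The groups did not overlap, and the log2 fold change of -0.47 (SE 0.21) missed the threshold in the exact test (adjusted p = 0.112) but passed it in the quasi-likelihood test (0.0796) and in DESeq2 (0.0912). Axin2 (-0.10), Nkd1 (-0.11) and Rnf43 (-0.17) did not pass the test.

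**Figure D4:**
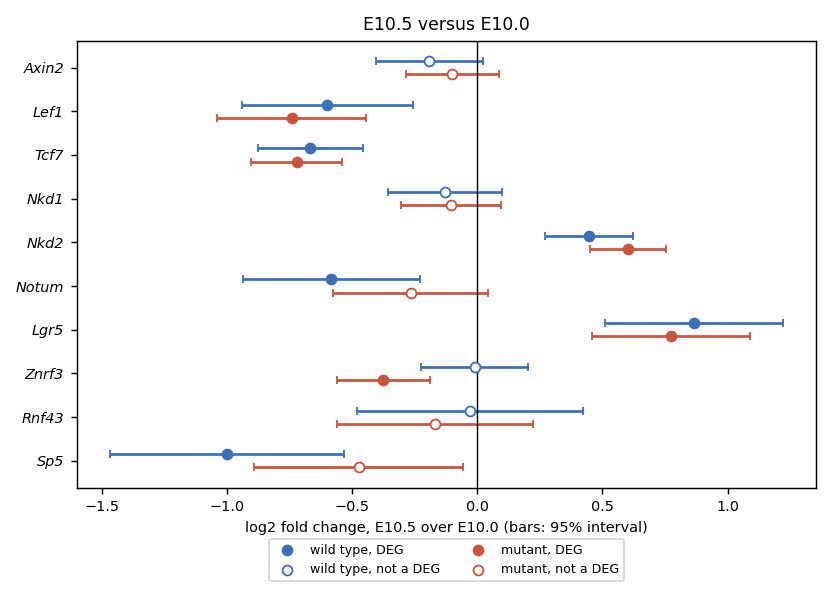
Log2 fold change of E10.5 over E10.0 (x axis) of each gene (y axis) in wild type and mutants, with 95% intervals; filled circles are DEGs. Nkd2 and Lgr5 lie to the right of 0 and Tcf7 and Lef1 to the left in both genotypes; the circles of Znrf3, Notum and Sp5 are filled in 1 genotype only, and none of the 3 differed between genotypes in the test of the interaction.

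Whether the change with stage differed between the genotypes was tested as an interaction term. None of the 10 genes passed an adjusted p of 0.1 in the edgeR quasi-likelihood test, beside 0.186% of all genes tested (0.0565% higher and 0.129% lower), 1 had an unadjusted p under 0.05 and DESeq2 called 0. That 1 gene was Znrf3, with a difference of -0.37 on the log2 scale (SE 0.14, 95% interval -0.65 to -0.08, unadjusted p = 0.00746, adjusted p = 0.585). For Sp5 the difference was 0.53 (95% interval -0.10 to 1.15, adjusted p = 0.923), and for Notum it was 0.32 (95% interval -0.16 to 0.79, adjusted p = 0.950). The differing calls of these genes between the genotypes are therefore not shown to be different changes. The smallest intervals were those of Nkd2 (-0.08 to 0.39) and Tcf7 (-0.33 to 0.23).

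Ectoderm markers also changed with stage, beside the fall of Lef1, Tcf7 and Sp5. In the wild type 2 of 9 ectoderm and apical ridge markers were DEGs, Sp6 (log2 fold change -0.75) and Grhl2 (-0.47), both lower at E10.5. In the mutants Trp63 (-0.38) was lower too, for 3 of 9. The summed level of the 9 ranged from 263 to 336 CPM at E10.0 and from 249 to 256 CPM at E10.5 in the wild type. The 3 macrophage markers tested (Csf1r, Ptprc and Cx3cr1) rose with stage in both genotypes. With Aif1, which was too low to be tested, the summed level of these markers was 1.86 to 4.11 CPM at E10.0 and 8.82 to 10.2 CPM at E10.5 in the wild type. The part of changing cell types in the levels of the response genes was not tested.

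The rest of the pathway was read from 7 lists that together held 101 genes, of which 85 were tested. Of these 85, 14 were DEGs between genotypes at E10.0 (7 higher and 7 lower) and 8 at E10.5 (all 8 lower), 16.5% and 9.41% beside the 6.61% and 3.73% of all genes. Their median log2 fold changes were -0.02 and -0.03. No gene among 12 other TCF factors and nuclear partners was a DEG between genotypes at either stage by the exact test, although 3 had an unadjusted p under 0.05 at E10.0 and 2 at E10.5. Among beta-catenin and its turnover only Apc was, higher at E10.0 (log2 fold change 0.37). Ctnnb1, which encodes beta-catenin itself, had a log2 fold change of -0.04 at both stages. Genes that were lower DEGs at both stages lay upstream or among other targets. They were the ligand Wnt5b (-0.33 and -0.34), the receptor Fzd10 (-0.34 and -0.35), the R-spondin Rspo4, which potentiates Wnt signals (-0.59 and -1.43), the secreted inhibitor Dkk1 (-1.68 and -1.90) and Id2, which is also a BMP target (-0.41 and -0.64). Dkk1 itself is also reported as a Wnt target and was at 16.0 ± 3.62 CPM (SD, n=3) in the wild type and 4.97 ± 1.44 CPM (SD, n=4) in the mutants at E10.0. The study counted Dkk1 and Id2 among its SMAD4 target genes.

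Between the stages, 20 of the 85 genes were DEGs in the wild type (10 higher and 10 lower) and 26 in the mutants (11 higher and 15 lower), 23.5% and 30.6% beside the 10.1% and 19.2% of all genes. Of the reported targets outside the 10 genes, Myc (log2 fold change -0.57 in the wild type and -0.61 in the mutants) and Cdx1 (-1.92 and -2.36) fell in both genotypes, as did the ligand Wnt7a of the dorsal ectoderm (-0.92 and -0.98) and the membrane inhibitor Apcdd1 (-0.53 and -0.51). The R-spondins did not all move alike, with Rspo1 (0.94 and 0.69) and Rspo3 (0.75 and 1.12) higher and Rspo4 (-0.55 and -1.38) lower at E10.5. Rspo2 was not a DEG between the stages in either genotype by the exact test. Comparisons that share a group of embryos are set side by side here and were not tested against each other.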

How the data were processed

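Poly-A RNA from single forelimb bud pairs was sequenced as unstranded single-end 50 cycle reads. The authors aligned reads to mm9 with TopHat2 2.0.13 and deposited raw counts per refGene symbol made with HTSeq, which are not normalized. Genes on chromosomes X, Y and M (1041 symbols) were left out. Normalization (TMM), dispersions (common, then tagwise with 10 prior degrees of freedom, over all 14 samples) and exact tests used edgeR 4.0.16 in R 4.3.3, and the interaction used its quasi-likelihood test. SEs come from the fitted negative binomial variance, and 95% intervals are 1.96 SEs. Alternatives were DESeq2 1.42.0, the quasi-likelihood test, RLE scaling, no filter, separate dispersions, a replicate block, and left-out libraries. The members and the pathway and marker lists were chosen with earlier results of these data known. All 10 members were named, with the DEGs of the lists of smallest adjusted p and those called in both comparisons. Positions are from the mm9 annotation and promoters from RefSeq. No replicates of a group were duplicates, since the lowest chi-square per degree of freedom between them was 14. Same-numbered mutants of the stages deviated together (correlations from 0.21 to 0.56 over 3 pairs). Differently numbered mutants had correlations from -0.49 to 0.29 over 13 pairs. The positive ones included replicate 4 of E10.0 with 5 of E10.5 (0.29) and 3 with 2 (0.28). Every pair of replicate 4 or 5 with mutant replicate 1, 2 or 3 was negative, so pairing by number was not told apart from the split in Rn45s share. With a block on the numbers, the DEGs between stages in the mutants were the same 5 genes. Same-numbered samples of the other comparisons did not all correlate. Tests were tried on simulated data.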

Additional observations from a re-analysis of the deposited data

Results flagged for a closer look

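None of the 10 response genes had a sample that stood out from its group by Dixon's criterion in the groups of 4. Over 40 such groups, which took in Smad4 and the marker sums, 3 values stood out, where chance alone flags about 1 in 20. The Smad4 level of mutant replicate 3 at E10.0, 46.0 CPM, was the highest of its group. The summed ectoderm and apical ridge markers of mutant replicate 1 at E10.5, 178 CPM, were the lowest of their group, and so were its summed erythroid markers, at 2732 CPM. The first of these embryos also had the highest level of 5 of the 10 response genes among the mutants at E10.0 (Notum, Sp5, Tcf7, Znrf3 and Rnf43). The second had the lowest level of 8 of the 10 among the mutants at E10.5, all but Lgr5 and Znrf3. Whether the marker levels play a part in those values was not tested.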

How the results depend on the processing

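Of the values of single response genes under alternative settings, 691 kept their direction and their side of the threshold, 38 changed sign, 10 became DEGs and 11 ceased to be. The counts of members in the stage comparisons and the interaction stayed within 1.5 times under all alternatives run. At E10.0 the count of DEGs between genotypes was 0 to 2 with 1 replicate left out. At E10.5 it was 0 to 1, and it was 1 (Lef1) with the replicate block and 1 without mutant replicates 4 and 5. Sample numbers did not pair genotypes, and the block on them gave Notum -0.32 (adjusted p = 0.312) and Lef1 -0.29 (0.0884) at E10.0 and Lef1 -0.47 (0.0757) at E10.5. With the block the sign changed for Tcf7 at E10.0 (0.073), for Axin2 (-0.16), Rnf43 (-0.15) and Sp5 (-0.069) at E10.5, and in the interaction for Axin2 (-0.024), Nkd1 (-0.18), Notum (-0.062) and Lgr5 (0.0071). Without mutant replicates 4 and 5 it changed for Tcf7 at E10.0 (0.0044), Axin2 (-0.078) and Rnf43 (-0.079) at E10.5, Znrf3 between wild-type stages (0.0023) and Nkd1 in the interaction (-0.087). With 1 replicate left out, ranges that crossed 0 were, for genotype at E10.0, Lef1 -0.18 to 0.11 and Tcf7 -0.13 to 0.026; at E10.5, Axin2 -0.073 to 0.15, Rnf43 -0.043 to 0.18 and Sp5 -0.045 to 0.14; for stage, Znrf3 -0.086 to 0.064 and Rnf43 -0.14 to 0.12 in wild types and Rnf43 -0.27 to 0.0015 in mutants; and in the interaction, Lef1 -0.28 to 0.0018, Tcf7 -0.14 to 0.011, Nkd1 -0.081 to 0.083 and Rnf43 -0.29 to 0.035. The cause was not tested. DEGs over all genes at E10.0 were 819, and 1990 with the block, 2018 without mutant replicates 4 and 5 and 254 to 1062 with 1 replicate left out. At E10.5 they were 462, and 286 to 468 with 1 left out. Between wild-type stages they were 1256, with 1989 in the fit of those groups alone, 1899 with the block and 484 to 1357 with 1 left out. The interaction called 23 genes, with DESeq2 87, without the filter 39, with the block 0, without mutant replicates 4 and 5 6, and with 1 left out 7 to 34. Few reads limit Sp5, Lgr5 and Rnf43.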
